A study of Mus musculus with 72 samples.

Results

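The binding of 5 factors near 8 genes of the naive pluripotency network was examined in mouse embryonic stem cells (ESCs). The genes are Klf2, Klf4, Klf5, Esrrb, Tfcp2l1, Zfp42, Prdm14 and Tbx3. The members were taken by name, and every ChIP-seq peak of Klf4, CTCF, Nanog, Sox2 or Oct4 within 50 kb of a gene body (GENCODE vM1, genome build mm9) was assigned to it. All 8 were found among 22380 protein-coding genes, Tfcp2l1 under its older symbol Tcfcp2l1. They lie at chr8:74842932-74845555 (Klf2), chr4:55540013-55545347 (Klf4), chr14:99697910-99712624 (Klf5), chr12:87702067-87862578 (Esrrb), chr1:120524522-120581744 (Tfcp2l1), chr8:44380422-44392363 (Zfp42), chr1:13103538-13117244 (Prdm14) and chr5:120120678-120134733 (Tbx3). Overlapping peaks of the 4 libraries of an antibody were merged into sites. The 8 windows held 399 of the 215668 sites, namely 35 Klf4, 64 CTCF, 172 Nanog, 58 Sox2 and 70 Oct4 sites. Hmgn1+/+n2+/+ (WT) cells were compared with Hmgn1-/-n2-/- (DKO) cells, which lack both HMGN1 and HMGN2, nucleosome-binding proteins that act on chromatin structure. Both genotypes are of strain C57BL/6, and no other allele or agent is given in the labels. Each antibody has 2 WT and 2 DKO libraries, described as biological replicates, and the number of independent ESC lines per genotype is not given in the sources used here. The comparison asks whether loss of HMGNs changes transcription factor binding at genes of cell identity.

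Naive pluripotency is the ground state of cells of the inner cell mass, kept in culture by LIF signalling. Klf2, Klf4 and Klf5 are zinc finger factors that bind GC-rich sites and can stand in for each other in part. Esrrb is an orphan nuclear receptor, Tfcp2l1 a Grainyhead-family factor, and Tbx3 a T-box factor, all of which sustain self-renewal. Prdm14 represses differentiation and DNA methylation genes, and Zfp42, also called Rex1, is a widely used reporter of the naive state. Oct4 and Sox2 bind jointly, Nanog and Klf4 bind many of the same enhancers, and CTCF marks loop anchors and insulators.

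Within an antibody the libraries differed in how many peaks were called. They held 4003 to 5924 peaks for Klf4, 62069 to 64634 for CTCF, and 52307 to 64486 for Nanog. Sox2 libraries held 10324 and 10222 peaks in WT against 16174 and 17144 in DKO. Oct4 libraries held 11140 and 12627 peaks in WT against 26742 and 30864 in DKO. The lists carry no read counts. The stacked reads at summits could be solved as whole numbers (within 0.0005 in −log10 p) for Oct4 and Klf4 and for 3 of the 4 Sox2 libraries, and not for CTCF and Nanog, whose depth is unknown. The lowest background, a measure of depth, was 0.924 and 1.31 reads per position in the WT Oct4 libraries and 1.03 and 1.43 in the DKO, so the genotypes overlapped in depth. It was 1.12 and 1.19 in the WT Klf4 libraries and 1.43 and 1.57 in the DKO. It was 1.5 and 1.56 in the WT Sox2 libraries and 1.74 in DKO replicate 1. The part of depth in the Klf4 and Sox2 results was not tested. The ESC labels list inputs per genotype, and which one each list was called against is not given, so genotype and input cannot be told apart. No antibody had a peak within 1 kb of Hmgn1 or Hmgn2, other than 1 Nanog peak at Hmgn2 in WT replicate 2, so these lists check nothing of the deletions. The ESC genes Pou5f1, Nanog and Sox2 had peaks of all 5 antibodies in every library. Of the fibroblast genes, Col1a2 and Twist1 had no Klf4 or Sox2 peak in any library, and Col1a1 had them in DKO libraries only (Klf4 0 and 0 in WT against 0 and 1 in DKO, Sox2 0 and 0 against 1 and 2). The B cell gene Cd79a had peaks of all 5 antibodies in every library and Cd79b of CTCF and Nanog, so a window of this size does not separate the cell types.

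The sequences printed here are 151 bases of mm9 around the summits on which the results turn. They are the Zfp42 and Prdm14 elements where Nanog fell most, the strongest Oct4 site, the 2 elements with sites of all 5 antibodies (near Klf4 and in Esrrb), and the CTCF sites with the lowest (Klf2) and the highest (Tbx3) change. Capitals mark matches on either strand to the octamer ATGCAAA, the SOX site CATTGT, the KLF site GGGNGTGG, or the CTCF core motif. The octamer can lie within the SOX and octamer composite named further on, which was searched too and has no match in these sequences.
Zfp42, Nanog summit 13.8 kb upstream of the start, chr8:44406082-44406232, plus strand: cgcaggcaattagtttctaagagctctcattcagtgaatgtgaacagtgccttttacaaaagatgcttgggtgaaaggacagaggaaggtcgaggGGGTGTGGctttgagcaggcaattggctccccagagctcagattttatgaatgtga
Prdm14, Nanog summit 42.0 kb downstream of the start, chr1:13075124-13075274, plus strand: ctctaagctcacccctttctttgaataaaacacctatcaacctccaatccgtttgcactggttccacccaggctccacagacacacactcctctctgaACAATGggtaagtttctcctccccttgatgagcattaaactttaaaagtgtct
Prdm14, Oct4 summit 52.6 kb downstream of the start, chr1:13064613-13064763, plus strand: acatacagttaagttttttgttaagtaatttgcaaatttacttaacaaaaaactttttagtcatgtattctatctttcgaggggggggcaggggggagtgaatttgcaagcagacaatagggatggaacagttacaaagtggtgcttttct
Klf4, Oct4 summit 54.2 kb downstream of the start, chr4:55490348-55490498, plus strand: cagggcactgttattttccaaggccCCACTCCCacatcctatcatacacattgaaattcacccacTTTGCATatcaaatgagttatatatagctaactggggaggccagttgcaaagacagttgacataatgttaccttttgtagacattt
Esrrb, Nanog summit in an intron, chr12:87842706-87842856, plus strand: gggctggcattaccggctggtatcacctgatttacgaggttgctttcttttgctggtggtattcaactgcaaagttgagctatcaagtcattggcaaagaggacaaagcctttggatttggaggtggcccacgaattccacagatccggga
Klf2, CTCF summit 25.5 kb upstream of the start, chr8:74817345-74817495, plus strand: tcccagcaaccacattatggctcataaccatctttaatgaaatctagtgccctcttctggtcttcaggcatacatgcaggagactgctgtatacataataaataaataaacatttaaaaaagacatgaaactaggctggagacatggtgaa
Tbx3, CTCF summit 20.6 kb downstream of the nearest start, chr5:120151265-120151415, plus strand: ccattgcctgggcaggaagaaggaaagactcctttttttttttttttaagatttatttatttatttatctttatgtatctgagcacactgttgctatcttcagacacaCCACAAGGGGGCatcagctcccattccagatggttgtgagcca

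Over all 399 sites, the letters of these motifs were unevenly spread among antibodies. The 201 bases around the summit held the octamer at 25 of 70 Oct4 sites (35.7%), against 22.2% of all Oct4 sites and 4.08% of positions 5000 bp away. The KLF letters stood at 20 of 35 Klf4 sites (57.1%), against 37.6% of all Klf4 sites and 7.1% of shifted positions. The CTCF core was found at 9 of 64 CTCF sites (14.1%), against 13.5% of all CTCF sites and 0.528% of shifted positions. SOX letters were at 16 of 58 Sox2 sites (27.6%), against 30.9% of all Sox2 sites and 11.3% of shifted positions. The SOX and octamer composite motif stood at 5 of 58 Sox2 sites (8.62%) and 4 of 70 Oct4 sites (5.71%), against 3.09% and 3.05% of all sites of those antibodies. The Esrrb site TCAAGGTCA was at 8 of 172 Nanog sites (4.65%), 2 of 35 Klf4 sites and 2 of 64 CTCF sites, against 2.44%, 2.43% and 0.319% of all their sites. For Sox2 (1.72% against 2.19%) and Oct4 (1.43% against 1.49%) its share was no higher than over all sites. The STAT site TTCCNGGAA was at 4 Nanog sites (2.33% against 0.995%), 1 Sox2 site (1.72% against 0.848%), 3 Oct4 sites (4.29% against 0.774%) and no Klf4 or CTCF site.

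Several of the 8 genes carried dense clusters of factor peaks. Esrrb, the longest gene, averaged 28.25 Nanog peaks per library and Prdm14 21.75, more than 99.79% and 99.35% of all protein-coding genes, whose median was 3.75. Klf5 averaged 11 Oct4 and 8 Sox2 peaks, against medians of 1 and 0.5. Prdm14 averaged 5.75 Klf4 peaks, more than 99.88% of genes, where the median gene had 0. At the other end Zfp42 averaged 2 Oct4 peaks and the Klf4 gene 2.25. For CTCF they ran from 2.75 peaks at Tfcp2l1 to 13.25 at Esrrb, on both sides of a median of 5.5. Windows scale with gene length, and that of Esrrb spans 261 kb against 103 kb for Klf2.

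Most of these sites were distal. Of the 399, 248 were intergenic, 111 intronic, 7 exonic and 33 within 1 kb of an annotated start. Sites of different antibodies were grouped into 223 elements where they overlapped by at least 1 bp. A single antibody was found at 134 of them, and all 5 antibodies met at only 2, one 54 kb downstream of the Klf4 start and one in an intron of Esrrb. All 35 Klf4 sites and all 58 Sox2 sites overlapped a site of another antibody, as did 59 of 70 Oct4, 92 of 172 Nanog and 21 of 64 CTCF sites. The windows of Klf2 (Gm10282, Eps15l1), Klf5 (Pibf1), Tfcp2l1 (Clasp1) and Prdm14 (Ncoa2) also touch other protein-coding genes, and a site there cannot be assigned to 1 gene.

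Few sites near the 8 genes were present in one genotype and absent from the other. A site was WT-only if called in both WT and no DKO library, and DKO-only in the reverse case, a count without a test. Oct4 had 15 DKO-only sites of 70 (21.4%), against 28.8% of all Oct4 sites, and 0 WT-only sites against 0.188%. Sox2 had 9 DKO-only sites of 58 (15.5%), against 16.6% of all, and 0 WT-only sites against 0.588%. Nanog had 6 DKO-only and 3 WT-only sites of 172, against 9.44% and 2.19% of all Nanog sites. Klf4 had 1 of each among 35, against 6.1% and 3.18%, and CTCF 1 of each among 64, against 2.89% and 1.31%. Each share lay below that over all sites, except WT-only CTCF sites (1.56% against 1.31%). Several were near it, such as DKO-only Sox2 sites and WT-only Klf4 sites (2.86% against 3.18%), and the counts are small. No difference from all sites was tested. With equally many of the strongest peaks from each library the total over antibodies went from 32 DKO-only and 5 WT-only sites to 13 and 15. Taking equal numbers evens the 2 kinds over all sites too, from 10116 DKO-only and 66 WT-only Oct4 sites to 1129 and 891, so this setting says little about an excess near the genes.

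Every gene but Klf4 had a DKO-only Oct4 site. Prdm14 held 5 of the 15 DKO-only Oct4 sites, Esrrb 3, Klf5 and Zfp42 2 each, and Klf2, Tfcp2l1 and Tbx3 1 each. Most were weak, with fold enrichment (the pileup of reads at the summit over the local background) of 12 or less in both DKO libraries. Of the 2 exceptions one lay in an intron of Tfcp2l1, 20.3 kb past the start (chromosome 1, 120544778), where Oct4 reached 22.6 and 25.8 in the DKO libraries. The other lay 1 kb upstream of the Prdm14 start (chromosome 1, 13118239), with 25.1 and 23.2. At that same Prdm14 promoter the single WT-only Klf4 site was found, with 7.88 and 7.19 in the WT libraries and no call in either DKO library. Sox2 there was called in all 4 libraries, at 9.9 and 7.53 in WT against 15.2 and 13.1 in DKO, and passed the test (log2 change 0.71 ± 0.23 SE, limma adjusted p = 0.0212). It did not pass without WT replicate 2 (adjusted p = 0.125), without DKO replicate 1 (adjusted p = 0.136) or after each library was centred on its median (0.31, adjusted p = 0.327). The single DKO-only CTCF site lay in an intron of Prdm14 (6.65 and 8.19), and the single WT-only CTCF site in an intron of Esrrb (4.51 and 5.25).

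At the sites called in all 4 libraries, fold enrichment was compared with limma on the log2 scale over all sites of the antibody. For Oct4, 21 of 24 sites near the genes were higher in DKO cells and 0 lower, against 85.6% higher and 0.329% lower of all 9434 Oct4 sites. The median log2 change was 1.25 near the genes and 0.93 over all sites, and 18 of the 24 lay above the all-site median. For Sox2, 13 of 25 sites were higher and 2 lower, against 33% and 4.47% of 7694 sites, with medians of 0.49 and 0.35. The 13 became 6 without WT replicate 2, 8 without DKO replicate 1, and 7 without DKO replicate 2 or without a variance trend. Nanog was balanced, with 9 of 99 sites higher and 11 lower, against 15.7% and 14.1% of 39762 sites, and the 9 became 14 without WT replicate 2. CTCF had 15 of 56 sites higher and 9 lower, against 24.7% and 22.5% of 56473 sites, and the 15 became 8 without DKO replicate 1 and 9 without DKO replicate 2. For Klf4 1 of 15 sites was lower and 0 higher, against 3.2% and 1.9% of 2310 sites. With 2 replicates per genotype these calls measure the spread between the deposited libraries, and binding in fewer cells and weaker binding per cell cannot be told apart. For Oct4 and Sox2 much of the change was common to all sites: after each library was centred on its own median, Oct4 had 12 higher and 3 lower calls of 24, against 21 and 0 before, and Sox2 2 higher and 3 lower of 25, against 13 and 2. Rises of these antibodies are therefore given with the share of all their sites that rose further, or with the value after centring. Such shares of sites with a higher or lower change are over the sites called in all 4 libraries. Sites called in 1 genotype only are not in them.

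**Figure D1:**
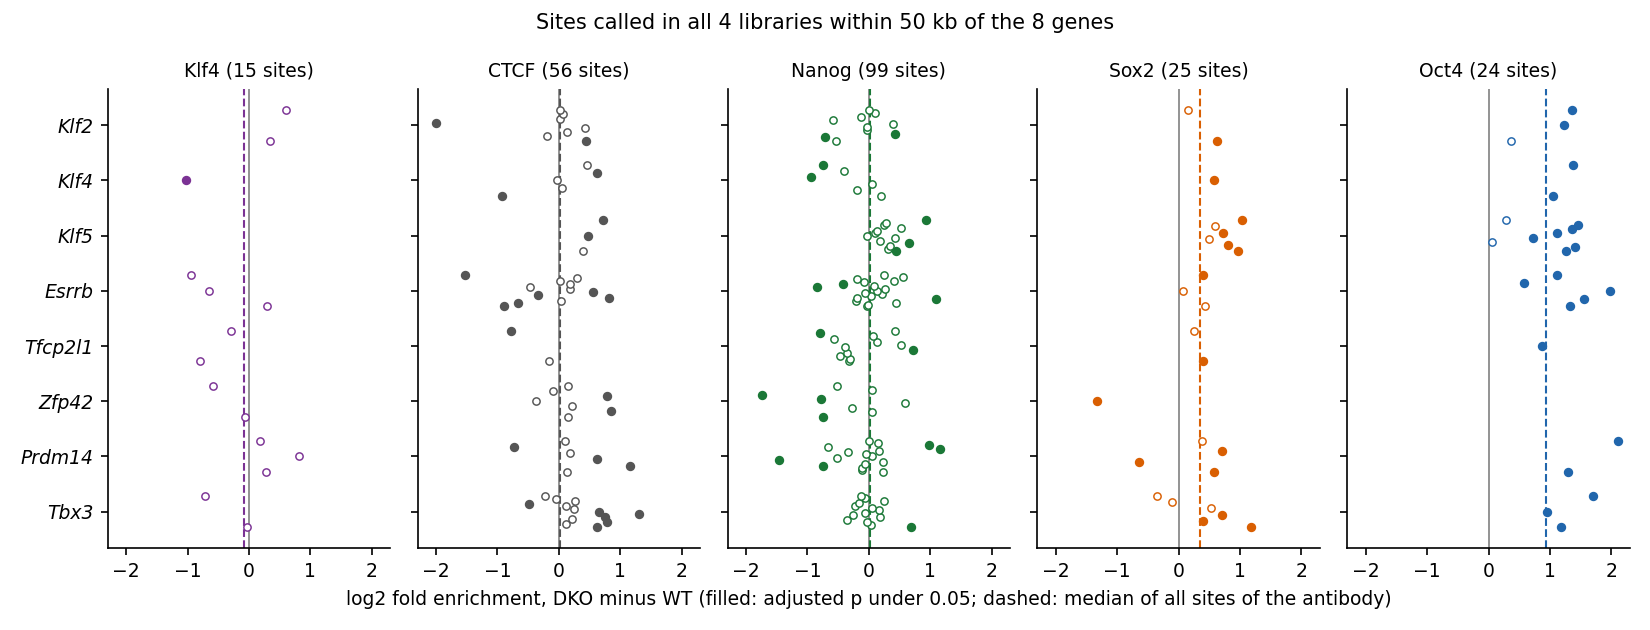
Change in fold enrichment (log2, DKO minus WT, x axis) at each of the 219 sites called in all 4 libraries, by gene (rows) and antibody (panels). Filled points passed the limma test at an adjusted p under 0.05, the dashed line is the median over all sites of the antibody. Oct4 points lie to the right of 0 and mostly right of their dashed line, while Nanog and CTCF points spread to both sides.

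At Zfp42, Nanog and Sox2 both fell at the main upstream element. Nanog fold enrichment at chromosome 8, 44406157, 13.8 kb upstream of the start, was 58.5 and 59.8 in the WT libraries, against 18.2 and 17.2 after loss of HMGNs. The WT libraries were more than 3-fold above the DKO libraries (3.34-fold, log2 change -1.74 ± 0.12 SE, limma adjusted p = 2.41e-06), and only 0.0654% of all Nanog sites fell further. Sox2 at the same place was 17.1 and 13.2 in WT against 5.47 and 6.47 in DKO (log2 change -1.33 ± 0.24 SE, adjusted p = 0.000376), with 0.078% of Sox2 sites lower. Oct4 was 11.3 and 13.8 in WT, was not called in DKO replicate 1 and reached 5.34 in DKO replicate 2, so it was not tested. Klf4 was 12.1 and 9.69 in WT against 6.15 and 8.5 in DKO, a difference that did not pass (log2 change -0.58 ± 0.28 SE, adjusted p = 0.214). The falls of Nanog and Sox2 ran against the median of all sites of these antibodies, which was 0.02 and 0.35. Both calls held under each alternative run. The element carries 1 KLF match, GGGTGTGG, and none of the exact octamer or SOX letters in the 151 bases shown. Other variants of those motifs were not searched. Nanog also fell at weak sites 1.35 kb upstream (from 6.18 and 7.1 to 3.84 and 3.93, adjusted p = 0.0249) and 43.5 kb downstream (from 6.98 and 6.99 to 4.75 and 3.63, adjusted p = 0.0335). The first call was lost without WT replicate 2, DKO replicate 1 or DKO replicate 2 (adjusted p = 0.1, 0.1 and 0.0831), the second without WT replicate 1, WT replicate 2 or DKO replicate 2 (adjusted p = 0.0706, 0.0691 and 0.227).

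CTCF moved the other way around Zfp42. Its strongest site, 21.9 kb upstream (chromosome 8, 44414220), rose from 21.9 and 20.1 to 37.3 and 34.6 (log2 change 0.78 ± 0.095 SE, adjusted p = 0.000837). A site 55.2 kb downstream of the start rose from 13.5 and 17.4 to 28 and 27.4 (0.86 ± 0.14 SE, adjusted p = 0.00273). These 2 sites lie on opposite sides of the gene, and the other CTCF sites there did not pass. Among all CTCF sites, 10.2% and 8.34% had a higher change than these.

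**Figure D2:**
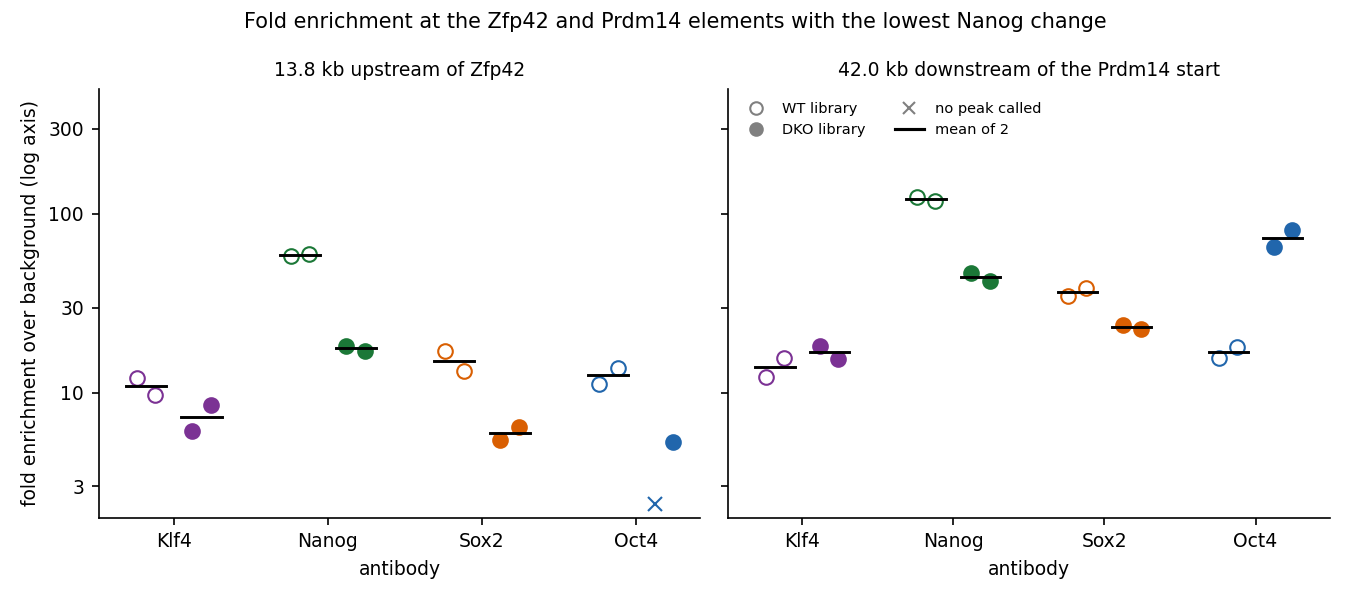
Fold enrichment (log axis, y) of Klf4, Nanog, Sox2 and Oct4 (x) in each WT (open) and DKO (filled) library at the Zfp42 element and the Prdm14 element where Nanog fell most, black bars being means of 2 and crosses libraries with no peak called. At Zfp42 the DKO points of all 4 antibodies lie below the WT points, of which Nanog and Sox2 passed the test, while at Prdm14 Nanog is lower (46.7 and 42.1 against 125 and 118) and Oct4 higher.

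At Prdm14 the factors changed in opposite directions at one element. Nanog was 125 and 118 in WT and 46.7 and 42.1 in DKO at chromosome 1, 13075199, 42.0 kb downstream of the start (log2 change -1.45 ± 0.091 SE, limma adjusted p = 1.84e-06). Sox2 fell there from 34.6 and 38.8 to 23.9 and 22.7 (-0.65 ± 0.14 SE, adjusted p = 0.00117). Oct4 rose there from 15.7 and 18.1 to 65 and 81.7 (2.11 ± 0.15 SE, adjusted p = 1.59e-27), and 0.35% of all Oct4 sites rose further. Klf4 was 12.3 and 15.6 in WT against 18.4 and 15.4 in DKO, with overlapping groups (0.28 ± 0.23 SE, adjusted p = 0.494). The Nanog, Sox2 and Oct4 calls held under each alternative run.

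Farther downstream, 52.6 kb from the start, lay the strongest Oct4 site of all 8 genes. Oct4 there (chromosome 1, 13064688) was 152 and 161 in WT and 360 and 408 in DKO (log2 change 1.29 ± 0.11 SE, adjusted p = 1.92e-22), and 21.9% of Oct4 sites rose further. Sox2 rose from 18.8 and 27 to 32.5 and 34.9 (0.58 ± 0.16 SE, adjusted p = 0.00937), and 33.7% of Sox2 sites rose further. This Sox2 call was lost without WT replicate 1 (adjusted p = 0.0848), without a variance trend (adjusted p = 0.0729) and after centring (0.18, adjusted p = 0.433). Nearer the gene, Nanog rose in an intron 10.5 kb past the start, from 3.26 and 4.51 to 7.92 and 9.36 (1.17 ± 0.25 SE, adjusted p = 0.00415). Nanog also rose at the start itself, 133 bp downstream, from 8.07 and 8.4 to 19.7 and 13.3 (0.97 ± 0.22 SE, adjusted p = 0.00515), a call lost without DKO replicate 1 (adjusted p = 0.0955). Nanog fell at another downstream site, 47.8 kb from the start, from 14.1 and 14.2 to 9.57 and 7.36 (-0.75 ± 0.21 SE, adjusted p = 0.0157), a call lost without DKO replicate 2 (adjusted p = 0.127). CTCF rose from 31.5 and 30.3 to 48.5 and 46.3 at 7.35 kb upstream (0.62 ± 0.075 SE, adjusted p = 0.000796) and fell from 30.9 and 33.6 to 19.5 in both DKO libraries at 15.9 kb upstream, in an intron of Ncoa2 (-0.72 ± 0.095 SE, adjusted p = 0.00108). CTCF also rose from 4.56 and 5.82 to 11.2 and 11.7 in an intron 9.25 kb past the start (1.15 ± 0.19 SE, adjusted p = 0.00276).

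The Klf4 gene had its main factor element 54 kb downstream of the start, where all 5 antibodies met. Klf4 itself was 14.4 and 13.4 in WT and 6.96 and 6.63 in DKO (chromosome 4, 55490473, log2 change -1.03 ± 0.26 SE, limma adjusted p = 0.0301). This was the single Klf4 call at the 8 genes. It was lost without WT replicate 1 (adjusted p = 0.0644), DKO replicate 1 (adjusted p = 0.0795) or DKO replicate 2 (adjusted p = 0.123), where the log2 change was -0.98, -1.06 and -0.99. In such fits 1 genotype has a single library, which is assumed to vary like the libraries of the other genotype. CTCF in the same element fell from 20.4 and 19 to 10 and 10.8 (-0.92 ± 0.13 SE, adjusted p = 0.00156). Oct4 rose from 78.9 and 82.5 to 163 and 173 (1.05 ± 0.12 SE, adjusted p = 7.4e-15), and 39.2% of Oct4 sites rose further. After centring this Oct4 change was 0.09 and did not pass (adjusted p = 0.303). Sox2 rose from 18.5 and 15 to 26.7 and 23.1 (0.57 ± 0.17 SE, adjusted p = 0.0145), with 34.2% of Sox2 sites rising further. That call was lost without WT replicate 2 (adjusted p = 0.0712), without DKO replicate 1 (adjusted p = 0.135), without a variance trend (adjusted p = 0.0603) and after centring (0.18, adjusted p = 0.481). Nanog was 44 and 45.2 in WT against 51.8 and 50.4 in DKO, and the change did not pass (0.20 ± 0.10 SE, adjusted p = 0.166). Nearer the gene, Nanog fell 15.6 kb downstream of the start, from 18.3 and 19.1 to 8.74 and 10.7 (-0.94 ± 0.19 SE, adjusted p = 0.00226), and 34.9 kb upstream, from 17.7 and 18.8 to 10.6 and 11.2 (-0.75 ± 0.17 SE, adjusted p = 0.0063). Oct4 rose 11.9 kb downstream, from 17.2 and 22.8 to 47.2 and 56.4 (1.38 ± 0.15 SE, adjusted p = 9.13e-15), with 16.7% of Oct4 sites rising further. CTCF rose at a weak site 5.19 kb downstream, from 4.64 and 5.72 to 8.9 and 7.13 (adjusted p = 0.0441), a call lost after centring (0.051), with the replicate block (0.0522) and with any 1 library left out (0.0502 to 0.196). The sequence printed for the 54 kb element has both an octamer and a KLF match.

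Esrrb had its element with all 5 antibodies in an intron. At the element 31.7 kb past the nearest internal start (chromosome 12, 87842783) Oct4 rose from 12 and 17.3 to 52.6 and 60.3 (log2 change 1.97 ± 0.16 SE, limma adjusted p = 3.72e-23), and 0.742% of Oct4 sites rose further. Nanog at this element, its strongest near the gene, was 78.7 and 69.9 in WT against 74.4 and 65.8 in DKO, with overlapping groups (-0.08 ± 0.098 SE, adjusted p = 0.553). Klf4 was 9.71 and 11.6 in WT against 6.05 and 5.03 in DKO, just short of the threshold (-0.94 ± 0.28 SE, adjusted p = 0.0523), which it passed without WT replicate 1 (adjusted p = 0.0495), after centring (0.0485), with sites of at least 3 libraries (0.0346) and at a −log10 q of at least 4 (0.0384). Sox2 was 25.6 and 24.6 in WT against 34.8 and 31.3 in DKO. That change passed (0.40 ± 0.14 SE, adjusted p = 0.0289) and was near the median of all Sox2 sites, with 47.1% rising further and a change of -0.000996 after centring. It did not pass without a variance trend (adjusted p = 0.15), nor without WT replicate 2 (adjusted p = 0.0531), DKO replicate 1 (adjusted p = 0.224) or DKO replicate 2 (adjusted p = 0.0601). All 5 tested Oct4 sites near Esrrb were higher, against 85.6% of all Oct4 sites. Of the intronic sites nearby, Oct4 rose from 18.2 and 21.3 to 57.5 and 58.7 at 28.9 kb and from 34.9 and 32.7 to 70.6 and 76.3 at 38.5 kb past that start. Of all Oct4 sites 8.35% and 33.9% rose further, and after centring the second was 0.16 and did not pass (adjusted p = 0.218). Between them, at 34.7 kb, Oct4 went from 7.35 and 6.07 to 8.85 and 11.2 (adjusted p = 0.0138), a call lost without WT replicate 2 (0.129) or DKO replicate 2 (0.151), and after centring the change was -0.39. Oct4 also rose at 0.984 kb, from 21.6 and 23.4 to 52.6 and 60 (adjusted p = 1.05e-14), with 19.9% of Oct4 sites rising further. Nanog fell at 28.9 kb, where Oct4 rose, from 41.7 and 42.8 to 33 and 30 (-0.42 ± 0.12 SE, adjusted p = 0.0149), a call lost without a variance trend (0.107) or DKO replicate 2 (0.0663). It fell at 13.6 kb too, from 8.71 and 8.01 to 4.95 and 4.37 (adjusted p = 0.0161), a call lost without WT replicate 1 (0.0561) or DKO replicate 2 (0.0939). In an intron 7.07 kb before an internal start Nanog rose from 7.01 and 6.14 to 15.9 and 12.3 (1.09 ± 0.22 SE, adjusted p = 0.00274). Of 12 tested CTCF sites near Esrrb 4 were lower and 2 higher, against 22.5% and 24.7% of all CTCF sites. A fall within the gene, at chromosome 12, 87743895 (log2 change -0.35), was lost without a variance trend (limma adjusted p = 0.0784). Its change was -0.30, -0.39 and -0.22 without WT replicate 1, WT replicate 2 or DKO replicate 2. The strongest falls lay beyond both ends of the gene. CTCF went from 37.2 and 35.1 to 14.5 and 10.8 at chromosome 12, 87900023, downstream (-1.53 ± 0.15 SE, adjusted p = 0.000399), and from 32.9 and 35.8 to 18.5 in both DKO libraries 24.7 kb upstream (-0.89 ± 0.094 SE, adjusted p = 0.000495). The 2 rises were at weak intronic sites, from 5.42 and 5.53 to 10.8 and 8.57 at 87736083 (adjusted p = 0.0117, without DKO replicate 1 0.0694), and from 4.95 and 4.41 to 6.58 and 7.12 at 87745525 (adjusted p = 0.0455). The second was lost with any 1 library left out (adjusted p from 0.076 to 0.156), after centring (adjusted p = 0.0642) and with the replicate block (adjusted p = 0.0598).

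**Figure D3:**
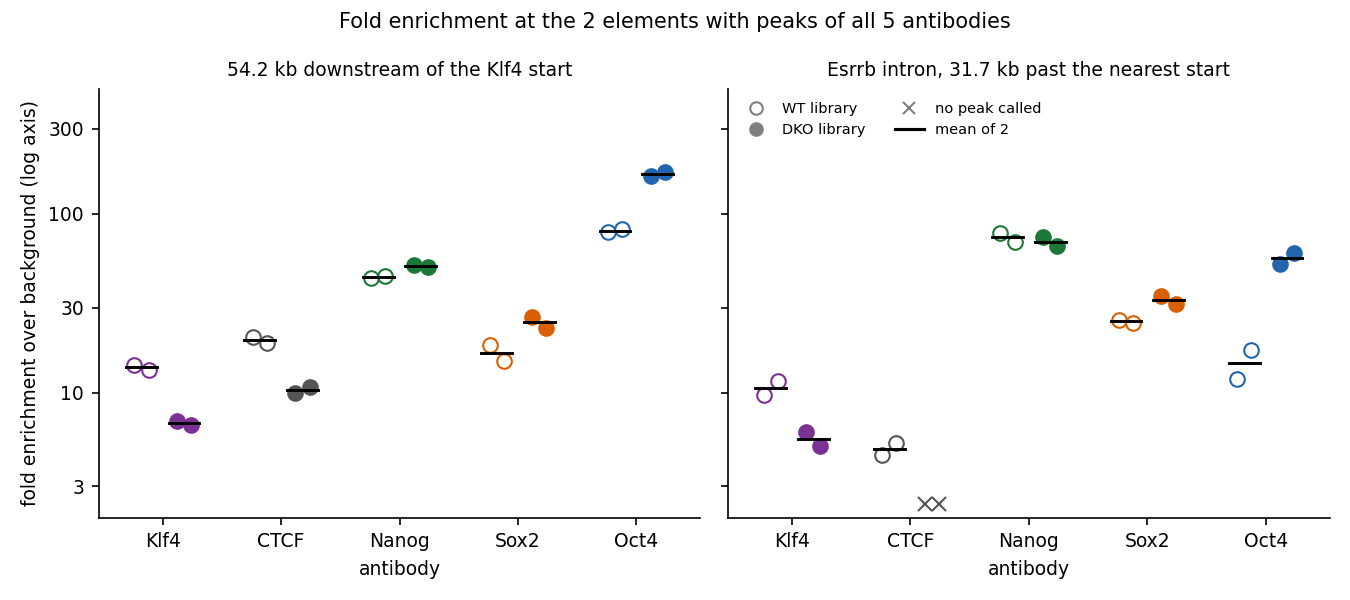
Fold enrichment (log axis, y) of the 5 antibodies (x) in each WT (open) and DKO (filled) library at the 2 elements with sites of all 5, near Klf4 and in an Esrrb intron, with black bars for means of 2 and crosses for libraries with no peak called. At both, the DKO points of Oct4 lie above and those of Klf4 below the WT points, while Klf4 passed the test only near the Klf4 gene.

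Klf2 was marked by the largest CTCF change near the 8 genes. CTCF 25.5 kb upstream of the start (chromosome 8, 74817420) was 23.4 and 25.1 in WT and 6.32 and 5.79 in DKO, about 4-fold lower (4.01-fold, log2 change -2.004 ± 0.14 SE, limma adjusted p = 0.000187). Only 0.0142% of all CTCF sites fell further, and the call held under each alternative run. Of the other CTCF sites near Klf2 only that 46.5 kb upstream passed, from 25.6 and 33.9 to 40.5 and 39.8 (adjusted p = 0.0296), and not without a variance trend (0.0728), WT replicate 1 (0.0723), DKO replicate 1 (0.0898) or DKO replicate 2 (0.0766). At the element 2.8 kb upstream, Oct4 rose from 93.7 and 92.6 to 215 and 223 (1.23 ± 0.11 SE, adjusted p = 2.23e-19), Nanog from 41.7 and 40.9 to 58.2 and 53.2 (0.43 ± 0.10 SE, adjusted p = 0.00746), and Sox2 from 20.2 and 22.4 to 30.6 and 35.6 (0.63 ± 0.15 SE, adjusted p = 0.00271). Of all sites of the antibody 26% of Oct4 and 30.6% of Sox2 sites rose further. After centring Oct4 still passed (0.27, adjusted p = 0.00208). The Sox2 call was lost after centring (0.23, adjusted p = 0.246) and without DKO replicate 2 (adjusted p = 0.0557), and the Nanog call without a variance trend (adjusted p = 0.101). Nanog fell 6.09 kb upstream, from 13.3 and 10.6 to 6.57 and 8.01 (-0.71 ± 0.23 SE, adjusted p = 0.0303), a call lost without WT replicate 1 (0.157) or DKO replicate 1 (0.171). At 15.4 kb downstream Oct4 rose from 83.8 and 97.5 to 236 and 228 (1.36 ± 0.11 SE, adjusted p = 4.45e-22), with 17.6% of Oct4 sites rising further. Nanog at that site was 64.6 and 61.6 in WT against 66 and 51.1 in DKO, and Sox2 31.6 and 32 against 36.2 and 34.7, and neither passed (adjusted p = 0.477 and 0.335), though Nanog fell past the threshold without DKO replicate 1 (adjusted p = 0.0376).

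Near Klf5, 6 of 8 tested Oct4 sites, 4 of 6 Sox2, 3 of 13 Nanog and 2 of 3 CTCF sites were higher and 0 of these lower, against 85.6%, 33%, 15.7% and 24.7% higher of all sites. After each library was centred on its median, 9 of these 30 sites were higher and 2 lower. Both CTCF calls were lost without WT replicate 1 (limma adjusted p = 0.072 and 0.0604), DKO replicate 1 (0.13 and 0.0551) or DKO replicate 2 (0.0701 and 0.0557), and 1 of them without WT replicate 2 (0.0762). Of the Sox2 calls 2 were lost without WT replicate 2 (0.0755 and 0.0618) or DKO replicate 2 (0.0864 and 0.115), and 1 of these without DKO replicate 1 (0.0798). Of the Nanog calls 1 was lost without DKO replicate 1 (0.0895) and another without DKO replicate 2 (0.121). Its factor sites lay on both sides of the gene, and 3 antibodies were higher at the same upstream element. At 31.9 kb upstream Nanog rose from 29.9 and 31.1 to 42.2 and 40.6 (log2 change 0.44 ± 0.12 SE, limma adjusted p = 0.0115), a call lost without a variance trend (adjusted p = 0.092). Sox2 there rose from 10.9 and 13.2 to 21.8 and 25.5 (0.97 ± 0.19 SE, adjusted p = 0.000658), still passed after centring (0.58, adjusted p = 0.0273), and 13.6% of Sox2 sites rose further. Oct4 there rose from 14.8 and 15.5 to 33.9 and 38.9 (1.26 ± 0.17 SE, adjusted p = 1.11e-11), but 24% of Oct4 sites rose further, and after centring the change was 0.30 and did not pass (adjusted p = 0.0809). The strongest Oct4 site, 54.6 kb downstream, rose from 34.3 and 36.9 to 90.5 and 92.4 (1.36 ± 0.13 SE, adjusted p = 6.55e-18), with 17.5% of Oct4 sites rising further, and passed after centring too (0.40, adjusted p = 0.00146). Klf4 had 2 sites and none in all 4 libraries, so no Klf4 test could be made.

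Near Tbx3, 3 of 3 tested Oct4 sites, 3 of 6 Sox2, 1 of 14 Nanog and 5 of 13 CTCF sites were higher, against the same shares of all sites, and 1 CTCF site was lower. With the 2 Klf4 sites, 12 of 38 were higher, and after centring 8 were higher and 2 lower. The Nanog call was lost without DKO replicate 1 (limma adjusted p = 0.176) or DKO replicate 2 (0.0557). Of the Sox2 calls 2 were lost without a variance trend (0.188 and 0.0633), the first also without DKO replicate 2 (0.54) and the second without WT replicate 2 (0.3) or DKO replicate 1 (0.277). Of the CTCF rises 1 was lost without WT replicate 2 (0.0658), DKO replicate 1 (0.0831) or DKO replicate 2 (0.0539). Oct4 at its strongest site, in an intron 0.737 kb upstream of an internal start (chromosome 5, 120130023), rose from 31.9 and 45.6 to 87.2 and 86 (log2 change 1.18 ± 0.14 SE, limma adjusted p = 3.24e-14). Of all Oct4 sites 29.6% rose further, and after centring the change was 0.22 and did not pass (adjusted p = 0.114). Sox2 there rose from 12.9 and 11.8 to 29.9 and 25.7 (1.17 ± 0.18 SE, adjusted p = 6.71e-05), and 7.63% of Sox2 sites rose further. Oct4 rose most 29.2 kb downstream of the nearest start, from 16.2 and 21.1 to 58 and 62.4 (1.70 ± 0.15 SE, adjusted p = 2.39e-20), and 4.34% of Oct4 sites rose further. The strongest Nanog site, 14.3 kb downstream, was 91.6 and 93.9 in WT against 110 and 99.5 in DKO and did not pass (0.17 ± 0.081 SE, adjusted p = 0.127), though it did without DKO replicate 2 (adjusted p = 0.0233). CTCF rose at 5 of 13 sites, most at 20.6 kb downstream, from 3.53 and 3.89 to 8.76 and 9.47 (1.30 ± 0.18 SE, adjusted p = 0.00144), and fell at 30.2 kb, from 28.3 and 32.3 to 21.7 and 21.4 (-0.49 ± 0.10 SE, adjusted p = 0.00732). The site that rose most carries a match to the CTCF core letters, CCACAAGGGGGC. The Klf2 site that fell has none in the 151 bases shown. Only 13.5% of all CTCF sites hold those exact letters, so the Klf2 site can still hold a variant of the motif.

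Tfcp2l1 had its leading element 2.3 kb upstream of the start. Oct4 there (chromosome 1, 120522216) rose from 146 and 160 to 278 and 279 (log2 change 0.87 ± 0.11 SE, limma adjusted p = 1.99e-12), below the median of all Oct4 sites, and after centring the change was -0.10 and did not pass (adjusted p = 0.193). Nanog was 80.8 and 64.7 in WT against 62.2 and 54.3 in DKO and just missed the threshold (-0.32 ± 0.11 SE, adjusted p = 0.0532), which it passed after centring (0.0289), with the replicate block (0.0137), with sites of at least 3 libraries (0.0433), and without WT replicate 2 (0.00791) or DKO replicate 1 (0.0115). Sox2 was 21.1 and 20.4 in WT against 28 and 26.7 in DKO (0.40 ± 0.15 SE, adjusted p = 0.0435), near the median of all Sox2 sites. That call was lost after centring (0.000524, adjusted p = 0.998), with the replicate block (0.0548), without a variance trend (0.145) and without WT replicate 2 (adjusted p = 0.0874), DKO replicate 1 (adjusted p = 0.209) or DKO replicate 2 (adjusted p = 0.136). Farther along, Nanog rose in an intron 17.9 kb past the start, from 12.1 and 9.28 to 18.1 and 16.9 (0.72 ± 0.19 SE, adjusted p = 0.0123), a call lost without DKO replicate 1 (0.0785). Nanog fell 62.0 kb downstream of the start, from 10.4 and 16.3 to 6.66 and 8.59 (-0.79 ± 0.25 SE, adjusted p = 0.0299), a call lost without a variance trend (0.0598), WT replicate 2 (0.24) or DKO replicate 1 (0.158). CTCF fell 103 kb downstream, from 10.7 and 8.49 to 5.52 and 5.58 (-0.78 ± 0.19 SE, adjusted p = 0.0136), a call lost without WT replicate 1 (0.0753) or DKO replicate 1 (0.0501).

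**Figure D4:**
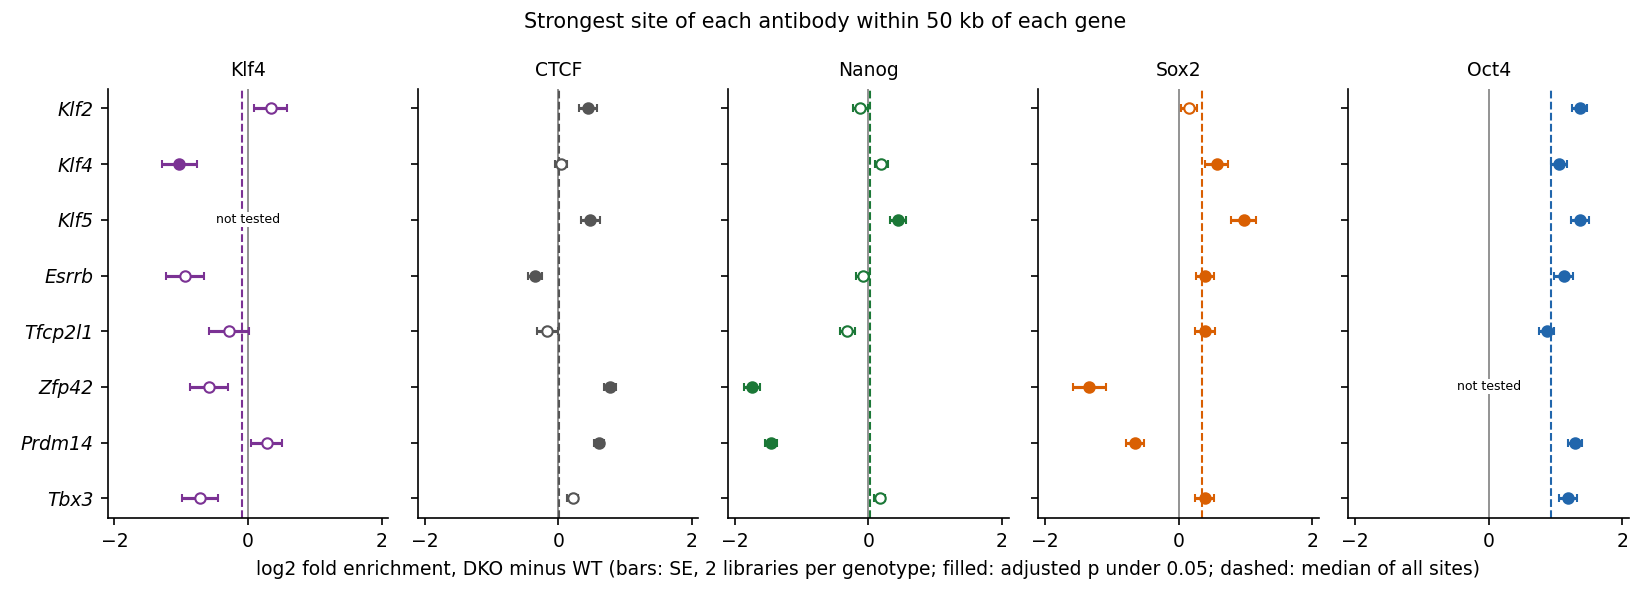
Change (log2 fold enrichment, DKO minus WT, x axis) with its SE at the strongest site of each antibody (panels) for each gene (rows), filled where the limma adjusted p is under 0.05, with the median of all sites of the antibody dashed. Zfp42 and Prdm14 are the 2 genes whose strongest Nanog site passed the test with a lower value, at -1.74 and -1.45, and the same 2 for Sox2, while Klf2, Esrrb and Tfcp2l1 have Nanog values below 0 that did not pass.

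Replicate and genotype spread set the scale of these changes. The SD of the log2 difference between replicates was 0.23 to 0.41 over the antibodies and genotypes. The SD of the mean DKO minus mean WT difference was 0.59 for CTCF, 0.56 for Nanog and Sox2, and 0.48 for Oct4 and Klf4. The replicate SD is of single libraries and the genotype SD of means over 2 libraries, so these SDs are not on one scale.

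The number of peaks per window was tested gene by gene. For Oct4, 6 of the 8 genes gained peaks, against 47.6% of all 12959 genes tested. Prdm14 had 2 and 2 Oct4 peaks in WT against 8 and 11 in DKO (log2 change 1.79 ± 0.26 SE, limma adjusted p = 1.43e-09), Tbx3 3 and 3 against 6 and 9, and Esrrb 5 and 6 against 10 and 11. Tfcp2l1 had 2 and 1 against 3 and 7, Klf2 3 and 3 against 5 and 6, and Zfp42 1 and 1 against 2 and 4. The Oct4 calls of Klf2 and Zfp42 were lost with the replicate block (limma adjusted p = 0.136 and 0.192). That of Zfp42 was also lost with a pseudocount of 0.5 (0.0592) and without the filter on genes (0.062). The Klf4 gene (2 and 2 against 3 and 2) and Klf5 (9 and 10 against 12 and 13) did not pass. For Sox2, Esrrb (3 and 4 against 10 and 8) and Tfcp2l1 (3 and 2 against 5 and 7) gained peaks, against 5.76% of 9267 genes, and both calls were lost with the replicate block (adjusted p = 0.0624 and 0.357). For Klf4, CTCF and Nanog 0 of the 8 genes passed limma's test in either direction, and 0 had an unadjusted p under 0.05. Of all genes tested 14.1% gained Nanog peaks and 0.0422% lost them, 0.203% gained CTCF peaks, and 0.0527% lost Klf4 peaks. With equally many of the strongest peaks from each library, which itself evens peak numbers, 0 of the 8 calls were left. All 8 were lost without DKO replicate 2, 7 each without WT replicate 1 or DKO replicate 1, and 5 without WT replicate 2.

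**Figure D5:**
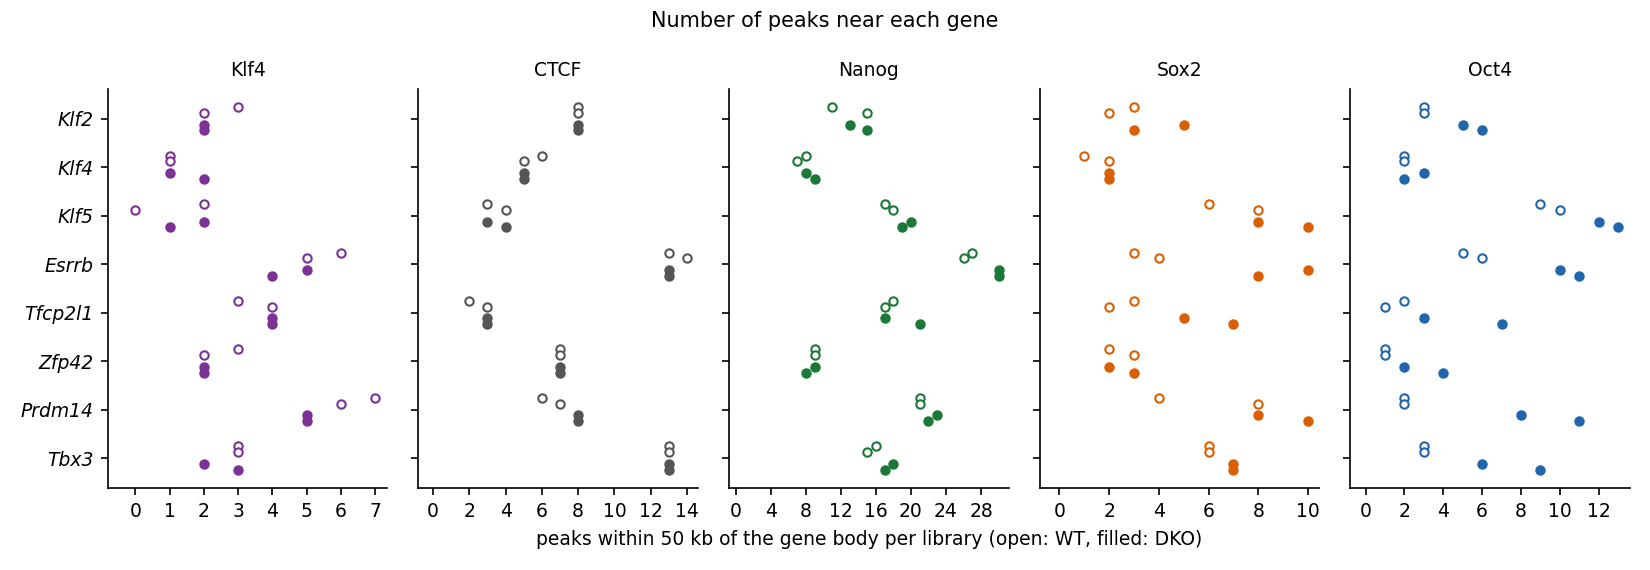
Peaks within 50 kb of each gene (x axis) in each WT (open) and DKO (filled) library, by gene (rows) and antibody (panels). Oct4 peaks at Prdm14, 2 and 2 in WT against 8 and 11 in DKO, are farthest apart, and CTCF peak numbers differ by at most 2 between libraries of a gene.

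Other genes of the network and genes of the primed state were counted for comparison. Near 16 other naive network genes, among them Nr5a2, Dppa3 and Stat3, 25 of 26 tested Oct4 sites were higher in DKO cells and 11 of 32 Sox2 sites were, with 0 lower for either, where 85.6% and 33% of all sites of these antibodies were higher. Nanog had 15 of 118 sites higher and 19 lower there, CTCF 21 of 86 higher and 25 lower, and Klf4 1 of 18 higher, against 15.7% and 14.1%, 24.7% and 22.5%, and 1.9% of all sites. Near 8 primed state genes, among them Fgf5 and Otx2, 12 of 13 Oct4 sites, 3 of 12 Sox2, 7 of 46 Nanog and 5 of 34 CTCF sites were higher, and 0, 1, 11 and 15 lower, against 0.329%, 4.47%, 14.1% and 22.5% of all sites. The median Oct4 change was 1.15 near both lists, against 1.25 near the 8 genes and 0.93 over all sites. The difference between the lists was not tested.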

How the data were processed

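ChIP-seq libraries of 5 antibodies in ESCs (4 libraries each, 20 in all) were analysed. According to the submitters' processing notes and the methods, reads were converted with bcl2fastq 1.8.4, trimmed with cutadapt 1.16, aligned to mm9 with BWA 07.17 and called with MACS2 2.1.1.20160309 in each library against input, and blacklisted regions were removed. The deposited lists hold a fold enrichment (ratio) at each summit, the −log10 of p-values and q-values, and a score, all written by the authors' peak caller. The score was not used. The lists hold no read counts.

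Peaks overlapping by at least 1 bp were merged into sites, and the highest fold enrichment of a library was kept. With limma 3.58.1 (R 4.3.3, eBayes with trend), log2 fold enrichment was tested at sites called in all 4 libraries, and log2(peaks + 1) at genes with a mean of at least 1 peak. In the second test many replicate pairs are tied, so the residual SD was not taken below that of a difference of 1 peak within 1 pair, a step added after tests on simulated data. Adjusted p-values are Benjamini-Hochberg over all sites or genes of the antibody, with a threshold of 0.05. Stacked reads were solved from 2000 peaks per library with a −log10 p of up to 40. No source ties a replicate to its own line or culture, so p-values measure the spread between libraries, and coordinates are 1-based mm9. Named sites are, per gene and antibody, the one with the highest mean −log10 q, with those called in 1 genotype only or past the test, of which some are given only as counts. The genes, lists and sites were chosen with earlier results of these data known. Motifs were searched with pysam 0.24.0 in the mm9 genome. Alternatives covered list length, the q threshold, overlap, window, centring, variance trend, pseudocount, gene filter, a replicate block and each library left out. One of the marker genes looked up is not reported here.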

Additional observations from a re-analysis of the deposited data

How the results depend on the processing

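Of the 81 sites near the 8 genes whose fold enrichment passed the test, 37 kept their direction and call under every alternative, 33 lost the call when 1 library was left out, and 6 changed sign under some alternative. The number higher in DKO cells was 58 and fell to 37 with each library centred on its median, while the number lower (23) stayed between 18 and 32. The number of WT-only sites was 5, and was 15 with the same number of top peaks, 25 when 1 library sufficed, and 9 to 15 with 1 library left out. The number of DKO-only sites was 32, and was 13 with the same number of top peaks, 18 in a window of 10 kb, 100 when 1 library sufficed, and 44 to 76 with 1 library left out. The 8 genes by antibody that gained peaks became 0 with the same number of top peaks, 5 in a window of 10 kb, and 0 to 3 with 1 library left out. With the replicate block 4 of these calls remained, all of Oct4 (Esrrb, Tfcp2l1, Prdm14 and Tbx3), and 57 sites were higher and 24 lower. The correlation of same-numbered libraries ran from -0.0717 to 0.0216. It showed no shared deviation, and cannot tell whether same-numbered libraries were prepared together. After centring, the log2 change turned to -0.24 for Sox2 near Klf2 (+15.4 kb), -0.003357 for CTCF near Klf4 (+51.1 kb), -0.23 for Oct4 near Klf5 (+38.8 kb), -0.000996 for Sox2 and -0.39 for Oct4 (+34.7 kb) in Esrrb introns, -0.10 for Oct4 near Tfcp2l1 (-2.3 kb), and -0.003371 for Sox2 (+14.3 kb) and -0.01577 for Oct4 (+26.0 kb) near Tbx3. With 1 library left out, 3 changes that had not passed ran through 0, from -0.3045 to 0.06614 for Nanog near Klf2 (+15.4 kb), -0.05934 to 0.1487 for CTCF near Klf4, with -0.007335 without DKO replicate 1, and -0.1724 to 0.003641 for Nanog in the Esrrb intron, with 0.000656 without WT replicate 1. Without a variance trend the Nanog calls at the Klf2 and Klf5 upstream elements were lost (limma adjusted p = 0.101 and 0.092), among others given with their sites. The cause of these changes was not tested, and intervals that need depth cannot be given for CTCF and Nanog.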

Other observations

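In embryonic fibroblasts (MEFs) of the same 2 genotypes, H3K27ac, a mark of active enhancers and promoters, had 11 and 7 peaks near the Klf4 gene in WT against 8 and 6 in DKO, and 7 and 7 near Tbx3 against 4 and 3. Klf2 had 6 and 4 against 3 and 3, Klf5 4 and 3 against 2 and 2, Tfcp2l1 1 and 1 against 0 and 0, and Esrrb went the other way, with 0 and 1 against 1 and 2. Prdm14 and Zfp42 had 0 H3K27ac peaks in all 4 MEF libraries. Over the whole genome the WT lists held 84850 and 84760 H3K27ac peaks and the DKO lists 76968 and 77614. Brd3, a reader of acetylated histones, had 5 and 5 peaks near Klf4 in WT MEFs and 0 in both DKO libraries, and 7 and 10 against 2 and 3 near Tbx3, where the whole lists held 31404 and 33072 peaks in WT and 8970 and 11549 in DKO. Of the other 6 genes only Klf2 had a Brd3 peak, 1 in WT replicate 2. In resting B cells, Ikaros, a lymphoid zinc finger factor, had 18 and 19 peaks near Klf2 in WT against 6 in each DKO library, where the whole lists held 9102 and 10969 peaks in WT and 5032 and 4838 in DKO. The Klf4 gene had 1 Ikaros peak in each WT library and 0 in DKO, and the other 6 genes had 0. The differences in these numbers were not tested.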
